A study of Mus musculus with 6 samples.

Results

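The genes described here encode 10 proteins of lipolysis and the lipid droplet, chosen by name, with earlier results of these data known. They are Pnpla2, Lipe, Mgll, Abhd5, G0s2, Plin1, Plin2, Plin4, Plin5 and Cidec, 10 of the 21456 genes in the table, and all 10 passed the filter on low values. The RNA came from WATs of chow-fed mice, 3 with the genotype Ntsr2 flox/flox (control) and 3 with Adipoq-cre::Ntsr2 flox/flox (Ntsr2 AKO), so both groups carry the floxed allele. Adipoq drives Cre in white and brown adipocytes, and other cells of the tissue keep the gene. The labels give the tissue as adipose, and the depot, age and sex of these mice are not given in the sources used here. Each group holds mice numbered 3, 4 and 5, which are different animals. Values are normalized counts, in which the reads of a gene are divided by the size factor of that mouse.

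White adipocytes store triglyceride in a large droplet and release fatty acids when the body needs fuel. ATGL (Pnpla2), HSL (Lipe) and monoacylglycerol lipase (Mgll) remove the fatty acids in turn, ABHD5 activates ATGL, and G0S2 and HILPDA inhibit it. Perilipins coat the droplet and control the access of the lipases, and CIDEC transfers lipid between droplets so that they grow. The transcripts were measured here, and neither the proteins nor their phosphorylation, by which much of lipolysis is controlled.

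The sequence before the start site is shown for G0s2 and Pnpla2, the inhibitor and its lipase, and for Hilpda. The latter was added since the 2 inhibitors had fold changes of opposite sign, though the groups overlapped for G0s2. Each run is the 250 bases before the start site in RefSeq on GRCm38.p6, 5′ to 3′ on the strand of the gene, at chr1:193273189-193273438 (minus strand) for G0s2, chr7:141454938-141455187 (plus strand) for Pnpla2 and chr6:29272376-29272625 (plus strand) for Hilpda. Capitals mark a GC box (GGGCGG or its reverse complement CCGCCC) in G0s2 and Pnpla2 and the hypoxia response element core ACGTG in Hilpda.
G0s2: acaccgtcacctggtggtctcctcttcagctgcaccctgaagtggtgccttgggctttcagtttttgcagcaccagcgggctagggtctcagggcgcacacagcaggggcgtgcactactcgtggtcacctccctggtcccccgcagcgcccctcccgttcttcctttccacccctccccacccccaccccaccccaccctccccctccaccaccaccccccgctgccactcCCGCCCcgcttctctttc
Pnpla2: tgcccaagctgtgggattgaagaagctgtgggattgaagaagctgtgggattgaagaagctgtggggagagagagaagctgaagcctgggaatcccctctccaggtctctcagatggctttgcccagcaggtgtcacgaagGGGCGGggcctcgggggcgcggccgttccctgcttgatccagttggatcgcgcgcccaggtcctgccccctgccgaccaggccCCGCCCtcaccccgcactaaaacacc
Hilpda: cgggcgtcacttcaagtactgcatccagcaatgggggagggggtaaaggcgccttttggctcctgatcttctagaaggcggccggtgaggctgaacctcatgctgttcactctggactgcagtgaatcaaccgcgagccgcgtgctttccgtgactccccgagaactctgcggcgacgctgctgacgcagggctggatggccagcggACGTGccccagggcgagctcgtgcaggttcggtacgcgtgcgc
The last 29 bases of the G0s2 run, with its GC box, lie inside the exon that GENCODE M21 gives for the gene. The Hilpda run is the one at the start of the principal transcript. Its part from 29272488 on, with its ACGTG, lies within the gene as GENCODE M21 bounds it. Hilpda has 2 promoters in RefSeq, and the other, not shown, has a GC box that begins 154 bases before its start. The table of promoters held 14 for the 10 genes, and each motif was searched on both strands. A GC box was found in 7 of the 14 promoters, those of Abhd5, G0s2, Lipe, Mgll, Plin5 and Pnpla2, against 32.7% of all 32851 promoters. The PPARG-RXR element, a pair of AGGTCA copies with 1 base between them, was in 0 of the 14 and in 0.0335% of all, and its core AGGTCA, which lies within the longer element, was in 3 of the 14 (Abhd5, Plin2 and Plin5) and in 14.0% of all. ACGTG was in 3 of the 14 (Lipe and Mgll) and in 16.6% of all, the cAMP response element TGACGTCA in 0 of the 14 and 1.55% of all, and the TATA box TATAAA in 0 of the 14 and 12.4% of all.

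The libraries were examined before the genes. Control libraries held 60405373 to 66098226 recovered reads and Ntsr2 AKO libraries 54085088 to 56268725. Ntsr2 itself was at 83.8, 64.0 and 152.5 in control mice and 3.10, 8.29 and 0 in Ntsr2 AKO mice, with a log2 fold change of -4.81 (adjusted p = 0.499 in limma and 1.1e-04 in DESeq2). The 12 adipocyte markers, led by Cfd and Adipoq, summed to 1640442 to 2285877 in control mice and 1833406 to 1950192 in Ntsr2 AKO mice, and none was at 0 in any mouse. The 14 skeletal muscle markers, led by Myh4 and Ckm, summed to 5.13% of all counts in control 5, 0.182% in Ntsr2 AKO 4 and 0.396% in Ntsr2 AKO 5. They summed to 504 to 1552 normalized counts in the other 3 mice. In bulk tissue, fewer cells of a type and less RNA per cell cannot be told apart. Each group has 3 mice, so p-values rest on few animals.

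Differences between the genotypes were tested to ask whether loss of Ntsr2 from adipocytes is accompanied by another level of lipolysis transcripts. The test was limma on log2(normalized count + 1) over 16157 genes with a mean of at least 10, with Benjamini-Hochberg adjustment, and fold changes are on that scale. None of the 10 genes passed the adjusted threshold of 0.05, as 0.00619% of all genes did. At an unadjusted p under 0.05 there was 1 of 10, G0s2, which was higher in Ntsr2 AKO mice, while 8.35% of all genes reached it in either direction and 3.08% in the higher one. DESeq2 on the recovered reads called the same gene and no other of the 10, and it called 1.36% of all genes. edgeR's quasi-likelihood test called 0 of the 10 after adjustment and had 1 at an unadjusted p under 0.05, against 1323 of all 16157 genes. The groups overlapped in all 10 genes, whereas they did not overlap in 15.0% of all genes tested. Fold changes were negative for 8 of the 10 and positive for G0s2 and Plin5, with a median of -0.08 on the log2 scale against -0.01 for all genes.

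**Figure D1:**
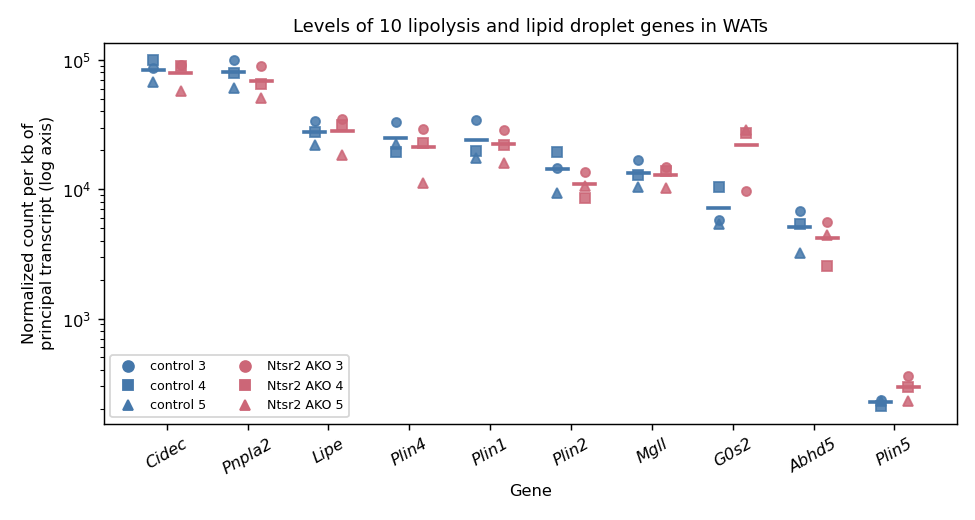
Normalized count per kb of the principal transcript, on a log axis, of the 10 genes in each of the 3 control mice (blue) and 3 Ntsr2 AKO mice (red), with bars at the group means. G0s2 stood 8th by mean in control mice and 5th in Ntsr2 AKO mice, where 2 of the 3 mice lay above every control mouse.

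To compare the genes with each other, normalized counts were divided by the length of the principal transcript in GENCODE M21. Per kb, Cidec (84150 ± 16405) and Pnpla2 (79938 ± 19705, SD, n = 3) had the highest means in control mice, and they overlapped. Lipe (27764 ± 5931), Plin4 (24929 ± 7082) and Plin1 (23829 ± 9199) followed, then Plin2 (14449 ± 5015) and Mgll (13353 ± 3254). G0s2 (7166 ± 2747), Abhd5 (5111 ± 1805) and Plin5 (226 ± 13.9) had the lowest means. Between neighbours in this order the control mice did not overlap from Pnpla2 to Lipe, from Mgll to G0s2 and from Abhd5 to Plin5, and they overlapped at every other step. In Ntsr2 AKO mice Cidec, Pnpla2 and Lipe again had the highest means, in that order. G0s2 was 5th in that group, at 21921 ± 10606 per kb.

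The lipases were measured first. Pnpla2, at chr7:141455198-141460743 on GRCm38, encodes ATGL, which opens the breakdown of triglyceride. Its normalized counts were 179587, 143142 and 108697 in control mice 3, 4 and 5 and 161908, 117111 and 91080 in Ntsr2 AKO mice 3, 4 and 5. The groups overlapped, with the lowest value in Ntsr2 AKO 5, and the log2 fold change was -0.23 (95% interval -0.93 to 0.47, limma adjusted p = 0.840). Lipe, at chr7:25379527-25398710, encodes hormone-sensitive lipase, which acts mainly on diacylglycerol. Its counts were 121944, 99901 and 79089 in control mice and 126384, 113799 and 65950 in Ntsr2 AKO mice, so that both the highest and the lowest value were in Ntsr2 AKO mice. The means were 100311 ± 21430 and 102044 ± 31885 (SD, n = 3), with a log2 fold change of -0.01 (-0.73 to 0.71, adjusted p = 0.996). Mgll, at chr6:88724412-88828360, encodes the lipase of the last step. It measured 65090, 49669 and 40153 in control mice and 57826, 53629 and 39221 in Ntsr2 AKO mice. These ranges lay close to each other, and the log2 fold change was -0.03 (-0.60 to 0.54, adjusted p = 0.978). The intervals of Lipe and Mgll still span folds of 0.603 to 1.64 and 0.660 to 1.45.

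The regulators of ATGL were examined next. Abhd5, at chr9:122351608-122381524, encodes the co-activator that perilipin 1 holds until lipolysis is stimulated. Its counts were 21434, 16861 and 10108 in control mice and 17579, 7994 and 13954 in Ntsr2 AKO mice. Ntsr2 AKO 4 was the lowest mouse and control 3 the highest, and the groups overlapped. The log2 fold change was -0.30 (-1.18 to 0.58, adjusted p = 0.834).

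G0s2, at chr1:193272161-193273217, encodes a small protein that binds ATGL and blocks its activity. Its normalized counts were 5077, 8994 and 4653 in control mice 3, 4 and 5 and 8452, 23772 and 25055 in Ntsr2 AKO mice 3, 4 and 5. Ntsr2 AKO 4 and 5 were above every control mouse, whereas Ntsr2 AKO 3 lay just below control 4. The means were 6242 ± 2393 and 19093 ± 9238 (SD, n = 3). The log2 fold change was 1.52 (SE 0.46, 95% interval 0.42 to 2.62), or 2.87-fold. The adjusted p of limma was 0.523 (unadjusted p = 0.0138), that of edgeR was 0.569 and that of DESeq2, with a log2 fold change of 1.62, was 0.0180. The exact two-sided permutation test over the 6 mice gave p = 0.2, and 0.10 is the smallest p that 3 against 3 mice allow.

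The skeletal muscle markers varied along with this gene in the Ntsr2 AKO group. Ntsr2 AKO 4 and 5, with the high G0s2 counts, held 102266 and 225547 normalized counts of muscle markers, and Ntsr2 AKO 3 held 1552. Control 5 held 3255810, the most of the 6 mice, and had the lowest G0s2 count. With the muscle score as a covariate over the 6 mice, the log2 fold change of G0s2 was 1.49 (limma adjusted p = 0.532). In a fit chosen after seeing the data, on control 3, control 4 and Ntsr2 AKO 3 alone, it was 0.32. That fit left out Ntsr2 AKO 4 and 5, the mice with the high G0s2 counts, so a smaller value followed from the choice of mice. The part of muscle RNA in the G0s2 values was not tested.

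**Figure D2:**
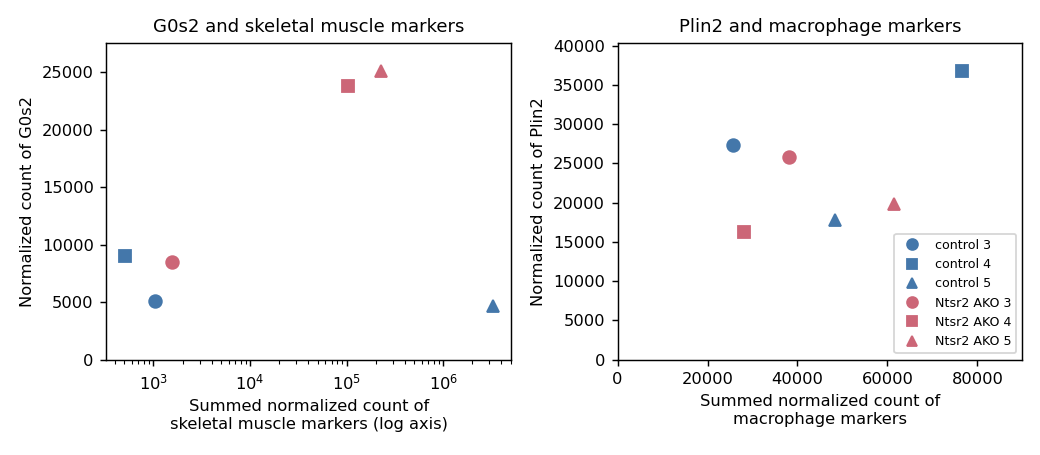
Left, normalized count of G0s2 against the summed normalized count of 14 skeletal muscle markers (log axis) and, right, of Plin2 against the sum of 9 macrophage markers, with a point for each of the 3 control (blue) and 3 Ntsr2 AKO mice (red). G0s2 was high in Ntsr2 AKO 4 and 5, which held muscle transcripts, and lowest in control 5, which held the most.

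As a ratio within a mouse does not depend on scaling, G0s2 was also set against the lipase it inhibits. Per kb of transcript, there was 0.0584, 0.130 and 0.0884 of G0s2 for each Pnpla2 in control mice and 0.108, 0.419 and 0.568 in Ntsr2 AKO mice. Control 4 lay above Ntsr2 AKO 3, so these ratios overlapped too. The difference of the log2 ratio of counts was 1.75, or 3.37-fold, from -4.56 ± 0.58 in control mice to -2.81 ± 1.28 in Ntsr2 AKO mice (exact permutation p = 0.2, adjusted over 3 ratios 0.6). With a mouse left out, the difference ran from 1.28 without Ntsr2 AKO 5 to 2.48 without Ntsr2 AKO 3, the mouse whose ratio lay within the control range. The ratio of Abhd5 to Pnpla2 differed by -0.07 (exact permutation p = 0.8, adjusted 0.8) and its sign turned without Ntsr2 AKO 4, at 0.24. The ratio of Plin2 to Plin1 differed by -0.29 (exact permutation p = 0.6, adjusted 0.8) and turned to 0.05 without control 4.

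HILPDA, another inhibitor of ATGL, is encoded by Hilpda at chr6:29272488-29275446, which is not among the 10 genes. Its counts were 2373, 1009 and 1106 in control mice and 714, 517 and 524 in Ntsr2 AKO mice, so the groups did not overlap. The log2 fold change was -1.26 (SE 0.34), with an adjusted p of 0.522 in limma, 0.569 in edgeR and 0.0258 in DESeq2. Control 3 was far above the other control mice, and without it the log2 fold change was -0.87 (limma adjusted p = 0.570). That mouse also stood apart in Lep (67722, against 5997 to 17222 in the other mice) and in the sums of lymphocyte markers (901 against 95 to 237) and epithelial markers (191 against 0 to 11.5), and their part in the Hilpda values was not tested. The 2 inhibitors of ATGL thus had fold changes of opposite sign, and neither passed the adjusted threshold in limma. On the 3 mice with few muscle transcripts, of which Ntsr2 AKO 3 was the only one of its genotype, the log2 fold change of Hilpda was -1.11.

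**Figure D3:**
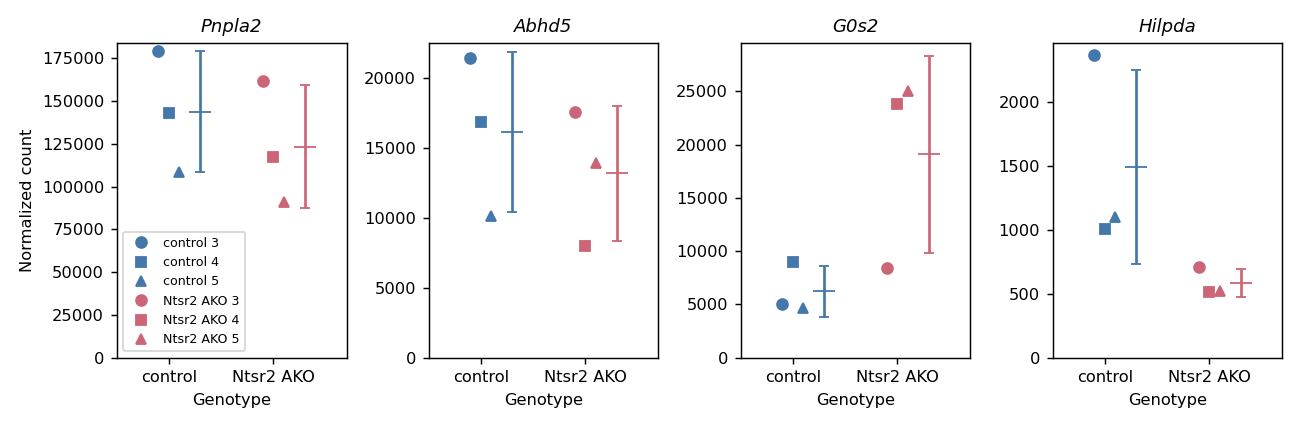
Normalized counts of Pnpla2, its co-activator Abhd5 and its inhibitors G0s2 and Hilpda in each mouse, with the mean and SD of each group of 3 beside the points. Hilpda was the gene whose groups did not overlap, at 714 or less in Ntsr2 AKO mice and 1009 or more in control mice.

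The perilipins followed. Plin1, at chr7:79720218-79732903, encodes the main coat protein of the adipocyte droplet, which binds ABHD5. It measured 96786, 55706 and 48884 in control mice and 80506, 62376 and 45064 in Ntsr2 AKO mice, with overlapping groups and a log2 fold change of -0.07 (limma, SE 0.33, adjusted p = 0.963). Plin4, at chr17:56100591-56109803, encodes a perilipin that coats small, newly formed droplets. Its counts were 189500, 111893 and 129076 in control mice and 167595, 130889 and 64646 in Ntsr2 AKO mice. Ntsr2 AKO 5 was the lowest of the 6, and the log2 fold change was -0.32 (limma, SE 0.40, adjusted p = 0.836) and 0.08 without that mouse.

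Plin2, at chr4:86648386-86670060, encodes the perilipin found in most cell types, lipid-laden macrophages included. Its counts were 27376, 36699 and 17762 in control mice and 25789, 16254 and 19860 in Ntsr2 AKO mice. The groups overlapped, and the log2 fold change was -0.37 (-1.07 to 0.34, limma adjusted p = 0.754). It was negative in each of the 18 alternatives, some of which, such as the filters, cannot change a fold change. Macrophage markers were led by Lyz2 and Mrc1. Their sums were 25625, 76670 and 48414 in control mice and 38122, 28166 and 61449 in Ntsr2 AKO mice. Control 4 had the highest sum and the highest Plin2 count. Control 3 had the lowest sum, and its Plin2 count lay above those of control 5 and every Ntsr2 AKO mouse. Ntsr2 AKO 4 had the lowest sum and the lowest Plin2 count of its group. Ntsr2 AKO 5 had the highest sum of that group, with a Plin2 count below that of Ntsr2 AKO 3. The part of macrophages in the Plin2 values was not tested.

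Plin5, at chr17:56111601-56117596, lies on the same strand as Plin4, with 1797 bases between the genes, and encodes the perilipin of oxidative tissues such as heart, muscle and brown fat. It was the least abundant of the 10 genes, at 468, 417 and 459 in control mice and 716, 581 and 460 in Ntsr2 AKO mice. Ntsr2 AKO 3 and 4 were above every control mouse and Ntsr2 AKO 5 was among them. The log2 fold change was 0.36 (-0.11 to 0.84, limma adjusted p = 0.649). It was positive in each of the 18 alternatives, with the same limit as for Plin2. Among the mice with muscle transcripts, control 5 lay between the other control mice and Ntsr2 AKO 4 and 5 lay below Ntsr2 AKO 3, and the part of muscle RNA in the Plin5 values was not tested. The sum of 8 brown and beige fat markers, led by Cidea and Cox8b, was 4298 to 9455 in control mice and 7835 to 12750 in Ntsr2 AKO mice, and Ucp1 and Elovl3 were at 0 in some mice. Most of the sum was Cidea and Cox8b. Means in control and Ntsr2 AKO mice were 904 and 560 for Ppargc1a, 357 and 232 for Cox7a1 and 76.0 and 61.6 for Dio2. The other markers had higher means in Ntsr2 AKO mice. These were 3215 and 5349 for Cidea, 2468 and 2995 for Cox8b and 453 and 639 for Otop1. Ucp1 was at 24.6 and 35.9 and Elovl3 at 1.92 and 12.3. Each of these genes except Cidea had overlapping groups. The control mean of Cox7a1 was raised by control 5 (781, against 101 and 190 in control 3 and 4), which held the most muscle transcripts. That of Dio2 was raised by control 4 (180), and the limma log2 fold change of Dio2 was 0.20. The part of brown and beige fat cells in the Plin5 values was not tested.

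Cidec, at chr6:113424634-113435760, encodes the protein that joins droplets in white fat. Its counts were 147812, 171293 and 115110 in control mice and 157666, 154404 and 98643 in Ntsr2 AKO mice. The values overlapped, and the log2 fold change was -0.09 (limma, SE 0.27, adjusted p = 0.939). Reads of Lipe, Mgll, Abhd5 and Plin4 may include reads of an annotated gene on the opposite strand that overlaps their exons, since the sources do not say that counting used strand.

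**Figure D4:**
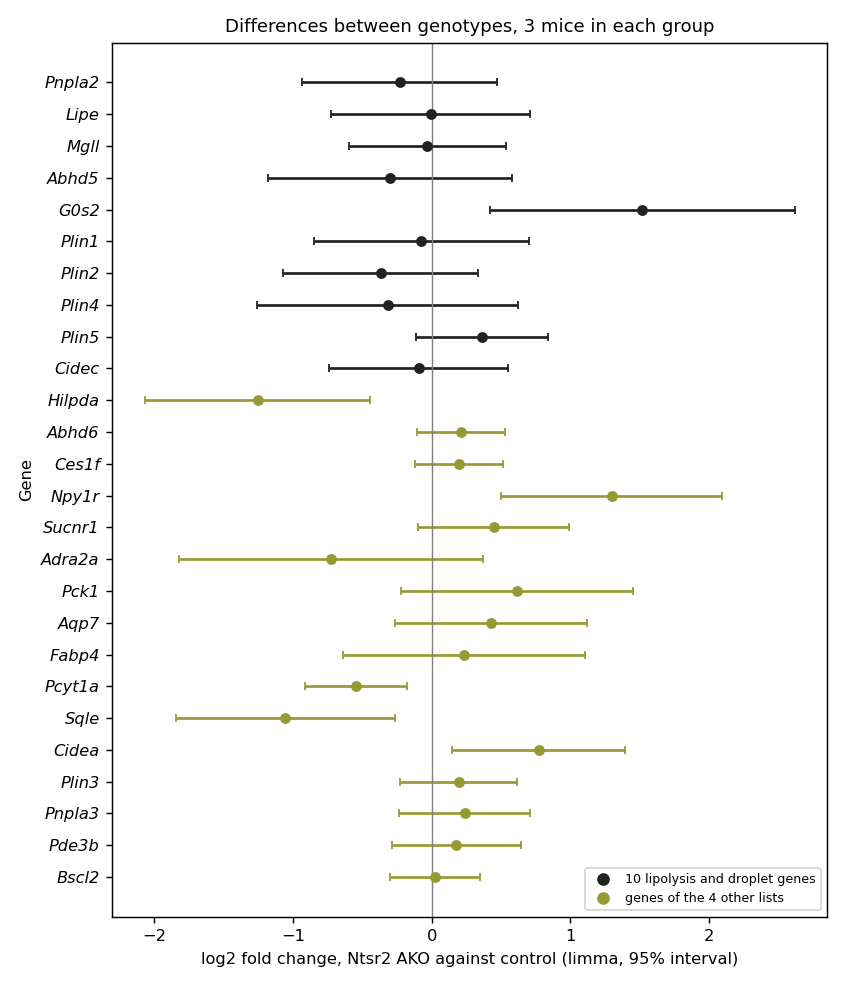
Log2 fold change of Ntsr2 AKO against control with its 95% interval in limma, over 3 mice in each group, for the 10 genes (black) and for 16 genes of 4 other lists of lipolysis and droplet genes (olive). The intervals are not adjusted for the number of genes, and that of G0s2 (0.42 to 2.62) is the one among the 10 that lies wholly on one side of 0.

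Mice differed from each other within a genotype for most of the 10 genes. Control 3 was the highest control mouse for 7 of the 10 and control 5 the lowest for 8. Among Ntsr2 AKO mice, number 3 was the highest for 9 and number 5 the lowest for 7. Within control mice the ratio of the highest to the lowest value ran from 1.12 for Plin5 to 2.12 for Abhd5. Within Ntsr2 AKO mice it ran from 1.47 for Mgll to 2.96 for G0s2. Control 5, which held the most muscle transcripts, was thus the lowest control mouse for Pnpla2, Lipe, Mgll, Abhd5, G0s2, Plin1, Plin2 and Cidec, and the part of muscle RNA in these values was not tested.

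For G0s2, the gene of the 10 with the smallest p, the genes most alike over the 6 mice were Amn1 (Pearson r = 0.995 of log2 values), 2610019E17Rik (0.995) and Dclre1c (0.993). Over these 6 mice, which also differ in genotype, 93 genes had an r above 0.95. The counts of Dclre1c were 471, 616 and 495 in control mice and 588, 830 and 828 in Ntsr2 AKO mice.

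Other genes of the pathway were taken from 4 lists of 50 genes, of which 44 were tested. limma called 0 of the 44 after adjustment. At an unadjusted p under 0.05 there were 7, 3 with a negative and 4 with a positive fold change, against 8.35% of all genes in either direction, 5.27% with a negative and 3.08% with a positive one. DESeq2 called 2, Hilpda lower and Npy1r higher, and it called 1.36% of all genes. edgeR called 0 after adjustment and had 7 at an unadjusted p under 0.05, against 1323 of all 16157 genes. The groups did not overlap in 7 of the 44, close to the share among all genes (15.0%). The median log2 fold change of the 44 was 0.05.

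Among 10 other lipases and regulators, Hilpda had an unadjusted p under 0.05 and the median log2 fold change was -0.0045. Abhd6, a monoacylglycerol lipase, was at 0.21 on the log2 scale, Ces1f, a carboxylesterase, at 0.20 and Pnpla3, a paralog of ATGL, at 0.24, with limma adjusted p of 0.687, 0.701 and 0.761. Of 6 genes of signals that restrain lipolysis, Npy1r, a Gi-coupled receptor of neuropeptide Y, measured 75.5, 61.9 and 71.9 in control mice and 113.5, 219.7 and 206.5 in Ntsr2 AKO mice. All Ntsr2 AKO mice lay above all control mice, at a log2 fold change of 1.30 (adjusted p = 0.522 in limma and 0.0323 in DESeq2), from 60 to 212 reads a mouse. The value of Npy1r was 0.72 on the 3 mice with few muscle transcripts. That fit left out Ntsr2 AKO 4 and 5, the mice with the highest Npy1r counts, so a smaller value followed from the choice of mice. Adra2a (-0.72), an adrenergic receptor coupled to Gi, the succinate receptor Sucnr1 (0.45) and Pde3b (0.18), which degrades cAMP under insulin, had limma adjusted p of 0.690, 0.632 and 0.813.

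Genes that handle the products of lipolysis were 7, of which limma and edgeR had 0 at an unadjusted p under 0.05 and DESeq2 called 0, and 6 of the 7 had a positive fold change. Pck1, which supplies glycerol 3-phosphate for re-esterification, had a log2 fold change of 0.62, the glycerol channel Aqp7 of 0.43 and the fatty acid carrier Fabp4 of 0.23 (limma adjusted p = 0.664, 0.708 and 0.877). Of 21 other droplet genes, 5 had an unadjusted p under 0.05 in limma, a larger share than the 8.35% of all genes. The list was not tested as a set. Pcyt1a, which makes phosphatidylcholine for the droplet surface, and Sqle, a sterol enzyme of the droplet and endoplasmic reticulum, had log2 fold changes of -0.54 and -1.05 (limma adjusted p = 0.522 and 0.535). Cidea, the relative of Cidec typical of brown and beige fat, was at 2134, 4167 and 3345 in control mice and 4513, 5122 and 6410 in Ntsr2 AKO mice. Its groups did not overlap, with a log2 fold change of 0.77 (limma adjusted p = 0.558). Clstn3 and Hsd17b11 were the other droplet genes at that threshold, both with positive fold changes. Plin3 (0.19), the perilipin of many tissues, and Bscl2 (0.03), the seipin of droplet formation, had limma adjusted p of 0.781 and 0.969.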

How the data were processed

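RNA-seq of WATs from 3 control and 3 Ntsr2 AKO mice was used. Per the methods, the authors used Trimmomatic for trimming, Hisat2 for alignment and StringTie for quantification, and the submitters' processing notes name mm10. They deposited a signal table of normalized counts, that is, counts divided by a size factor for each mouse, a step read from the values, in which 100% of values gave whole reads (within 0.01 read). Of the columns of values, 0 were left unassigned. In R 4.3.3, log2(normalized count + 1) was tested with limma 3.58.1 (mean-variance trend, mean of at least 10, Benjamini-Hochberg over 16157 genes, threshold 0.05, two-sided). Since the values are not counts, edgeR 4.0.16 and DESeq2 1.42.0 on the recovered reads were alternatives. Other alternatives were quantile normalization, pseudocounts of 0.1 and 5, a minimum mean of 50 or none, no trend, the replicate number as a block, a muscle score as covariate, values relative to adipocyte markers and each mouse left out. The fit on 3 mice with few muscle transcripts was chosen after seeing the data. Ratios were compared by exact permutation tests. The procedures were tested on simulated data.

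The 10 genes and the lists were chosen with earlier results of these data known. Named from the other lists were the 3 genes of each with the smallest p and Plin3, Hilpda, Pnpla3, Cidea, Fabp4, Aqp7, Pde3b and Bscl2, with Clstn3 and Hsd17b11 named after their values were seen. Gene positions are from GENCODE M21 (GRCm38) and promoters from RefSeq (GRCm38.p6). At totals of 54085088 reads or more in each mouse, counting error was small for the 10 genes other than Plin5. It was larger for Plin5, at 404 to 694 reads a mouse, and for listed genes with few reads, such as Adra2a and Npy1r. Precision was limited by the number of mice. No pair of mice within a group had identical columns or columns as close as sampling noise.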

Additional observations from a re-analysis of the deposited data

How the results depend on the processing

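With 3 mice in each group, the spread between mice sets the width of the intervals, and a p that misses the threshold does not show that values were alike. The number of genes called over the whole table was 1 in limma and 220 in DESeq2. It was 0 without the filter, without the trend, with the replicate block, in edgeR, with the muscle score, relative to adipocyte markers, on the 3 mice with few muscle transcripts and, for each mouse left out, from 0 to 0 (1303 genes at an unadjusted p under 0.05 with the block and 1323 in edgeR). Of the 10 genes DESeq2 called 1 and of the 44 others 2, and every other alternative called 0 of them.

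The same-numbered mice of the groups are different animals, and their deviations from the group means had correlations of 0.45, -0.24 and 0.41 for numbers 3, 4 and 5. The values for numbers 3 and 5 were the highest between the groups, whereas control 4 correlated best with Ntsr2 AKO 3 (0.26). Pnpla2, Lipe, Mgll and Plin1 had the same order of numbers in both groups. Whether mice of one number shared anything, such as a batch, is not given in the sources used here. The main fit did not treat the mice as pairs. When the replicate number was used as a block, the log2 fold change of G0s2 was 1.52 (limma adjusted p = 0.515).

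G0s2, Plin2 and Plin5 kept their sign in each of the 18 alternatives and 7 genes did not. The filters, the trend and the block leave a fold change as it is, and the pseudocounts barely move one at these counts. Those alternatives could thus not turn a sign. The signs of the 7 with small fold changes turned as follows, and the cause was not tested. Quantile normalization gave 0.17 for Lipe, 0.057 for Mgll, 0.055 for Plin1 and 0.021 for Cidec on the log2 scale. Lipe was at 0.034 in edgeR, at 0.031 in DESeq2 and at 0.046 with the muscle score, where Mgll was at 0.013. On the 3 mice with few muscle transcripts, Pnpla2 was at 0.014, Lipe at 0.20, Mgll at 0.024, Plin1 at 0.13 and Plin4 at 0.20. With each mouse left out, log2 fold changes ranged from -0.19 to 0.28 for Lipe, -0.20 to 0.15 for Mgll, -0.60 to 0.024 for Abhd5, -0.27 to 0.22 for Plin1, -0.60 to 0.082 for Plin4, -0.25 to 0.13 for Cidec and 1.25 to 2.03 for G0s2. The ratio of G0s2 to Pnpla2 then ranged from 1.28 to 2.48, that of Abhd5 to Pnpla2 from -0.34 to 0.24 and that of Plin2 to Plin1 from -0.56 to 0.053. Values relative to adipocyte markers moved the median of all genes to -0.13.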
